A study of Mus musculus with 14 samples.

Results

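The genes described here encode the proteins of the cytosolic ribosome, measured in the hypothalamus of fasted and fed mice with and without Mfn1 in their POMC neurons. A gene was a member when its symbol in the platform annotation was that of a ribosomal protein of the large (Rpl) or small (Rps) subunit, or was Rplp0, Rplp1, Rplp2 or Rpsa. Kinases of the Rps6k family and pseudogenes were left out. This gave 71 members of 17097 genes tested, 25 of the small and 46 of the large subunit. The rule goes by symbol and uses no measured value, but it was set with earlier results of these data known. Each gene stands for the probe set that names only it and has the highest mean over all arrays.

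Whole hypothalami of mice 12 weeks old were measured on 14 Affymetrix arrays, each hybridised with biotinylated cRNA made from 150 ng of total RNA. The groups were POMC-specific Mfn1 knockout mice fasted for 16 h (n = 3), control mice fasted for 16 h (n = 3), knockout mice under random feeding (n = 4) and control mice under random feeding (n = 4). All mice had a mixed background of C57Bl/6J, FVB/N and 129. Mfn1 encodes mitofusin 1, which fuses mitochondrial outer membranes, and POMC neurons are a small population of the hypothalamus that produces the precursor of melanocortin peptides. The labels name neither the alleles nor the driver of the deletion, nor the genotype of the control mice beyond the word control. Nor do they say that the arrays hold different mice, and the p-values then cover only the spread among these samples, which may be technical.

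Cytosolic ribosomal proteins are made in near equal amounts and assembled on ribosomal RNA in the nucleolus before the subunits leave for the cytoplasm. Their mRNAs begin with a C and an unbroken run of pyrimidines, the 5' terminal oligopyrimidine (TOP) motif, which lets the kinase complex mTORC1 switch their translation on when nutrients are plentiful and off when they are scarce. In the hypothalamus, phosphorylation of the ribosomal protein Rps6 downstream of mTORC1 is widely used as a sign of neuronal activity and nutrient state. An array reads the mRNA level and neither its translation nor the phosphorylation of the protein.

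The start of the transcript is shown first because the TOP motif is the feature by which these mRNAs are known to respond to nutrients. RefSeq promoter windows of mouse build GRCm38.p6 were at hand for 57 of the 71 members. In 26 of these 57 (45.6%) a C followed by at least 4 further pyrimidines lay within 5 bases of an annotated start on the transcribed strand, against 21.2% of 27025 genes with a window. TCTTT at the same place was found in 7 of 57 members (12.3%) and in 1.84% of all genes. The sequences below run 5' to 3' on the transcribed strand from 15 bases before to 15 bases from the annotated start, with the pyrimidine run in capitals where there was such a run near the start.
Rps6, chr4:86857353-86857382, minus strand: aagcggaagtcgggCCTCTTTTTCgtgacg
Rps18, chr17:33955651-33955680, minus strand: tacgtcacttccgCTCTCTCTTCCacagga
Rpl7a, chr2:26910792-26910821, plus strand: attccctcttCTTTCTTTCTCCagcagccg
Rpl15, chr14:18270972-18271001, minus strand: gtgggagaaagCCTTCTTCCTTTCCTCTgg
Rpl35, chr2:39005117-39005146, minus strand: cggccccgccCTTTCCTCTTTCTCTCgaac
Rplp2, chr7:141447636-141447665, plus strand: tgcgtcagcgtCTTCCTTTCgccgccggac
Rps13, chr7:116334176-116334205, minus strand: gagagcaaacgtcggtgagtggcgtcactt
Rplp0, chr5:115559452-115559481, plus strand: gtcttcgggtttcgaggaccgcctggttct
Capitals begin at a C no more than 5 bases from the start, so pyrimidines further to the left stay in small letters. The run in capitals was longest in Rpl15 and Rpl35 among those printed with one. In Rpl7a, Rpl35 and Rplp2 pyrimidines went on to the left of the capitals, and counted with them the run of Rpl7a was the longest. The windows of Rps13 and Rplp0 held no such run at the annotated start. An annotated start can lie some bases from the start used in this tissue, so no run in the window says only that these letters are not there.

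Further upstream, the letters CCGGAAG, searched on both strands from 250 bases before to 50 bases after the start, were found in 25 of 57 members (43.9%) and in 9.93% of all genes. ATGGCGG, on both strands, was found in 11 members (19.3%) and in 4.69% of all genes. GGGCGG, on both strands, was found in 35 members (61.4%) and in 38.2% of all genes. The letters TATAAA, on both strands, were found in 7 members (12.3%) and in 15.7% of all genes. ATGGCGG and GGGCGG share the letters GGCGG. The promoter of Rps6, the phosphorylated member, is printed as an example of a member that carries CCGGAAG, in capitals 91 bases before its start.
Rps6, chr4:86857368-86857617, minus strand: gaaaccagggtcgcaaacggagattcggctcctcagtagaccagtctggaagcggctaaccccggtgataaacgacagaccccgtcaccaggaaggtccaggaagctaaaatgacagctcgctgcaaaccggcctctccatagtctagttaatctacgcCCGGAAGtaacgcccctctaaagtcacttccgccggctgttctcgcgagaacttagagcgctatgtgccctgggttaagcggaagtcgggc

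Most members gave a bright signal that barely moved between arrays. The deposited values are log2 expression after RMA, and 63 of the 71 members had a mean of at least 11 over the 14 arrays. The median of the members' means was 12.1, in a table whose highest single value was 13.76. The range from the lowest to the highest array was under 0.2 log2 units for 56 members and under 0.3 for 66. The 8 members with a mean below 11 were Rpl3l, Rpl39l, Rpl14, Rpl7l1, Rps15a, Rps27l, Rpl22 and Rpl27. The signals of Rpl3l (mean 3.74) and Rpl39l (mean 4.09) lay near 3.64, the median of the 23 background probe sets. Signals of different probe sets depend on their probes, so no gene's level is set against another's here.

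The SD between arrays of a group had a median of 0.036 log2 units over the 71 members, against 0.119 over all genes tested. Among genes with a mean of at least 11 the medians were 0.035 for 63 members and 0.044 for all 650 such genes. The SD was below 0.05 for 57 of 71 members (80.3%), for 6.09% of all genes and for 64.5% of the 650 bright genes. The smallest SD among the members was 0.015, for Rpl35a, a protein of the large subunit. The largest was 0.218, for Rpl7l1.

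**Figure D1:**
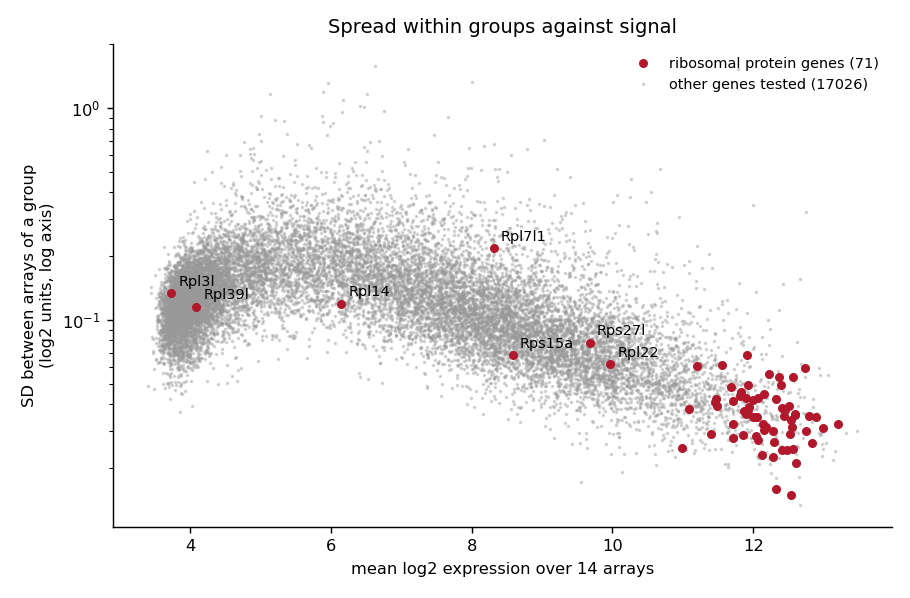
SD between arrays of a group (log2 units, log axis) against the mean log2 expression over 14 arrays, 1 point per gene, with the 71 ribosomal protein genes in red and the other 17026 genes in grey. Most members lie at the lower right, with high signal and a median SD of 0.036, while Rpl3l, Rpl39l, Rpl14 and Rpl7l1 lie among dimmer genes with a larger spread.

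Arrays differed as a whole in these genes by a few hundredths of a log2 unit. The level of an array, the mean over the members of each value minus the gene's mean over all arrays, was 0.014 ± 0.013 in knockout fasted mice and 0.011 ± 0.021 in control fasted mice (SD, n = 3 each). It was -0.019 ± 0.004 in knockout fed mice and -0.0003 ± 0.019 in control fed mice (SD, n = 4 each). The number of the 71 members above their own mean was 54, 53 and 33 on the knockout fasted arrays and 65, 37 and 34 on the control fasted arrays. It was 30, 25, 15 and 18 on the knockout fed arrays and 20, 29, 54 and 37 on the control fed arrays. Every knockout fed array was thus below every knockout fasted array, and the fasted and fed arrays of control mice overlapped. Control fasted replicate 1 had the most members above their mean and knockout fed replicate 3 the fewest. Of all genes, between 46.5% and 54.2% were above their mean on the fasted arrays and between 44.7% and 51.4% on the fed arrays. The level of the 25 small subunit genes lay between 0.005 and 0.042 on the 6 fasted arrays and between -0.031 and 0.015 on the 8 fed arrays. For the 46 large subunit genes the ranges were -0.011 to 0.032 on the fasted and -0.023 to 0.027 on the fed arrays.

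**Figure D2:**
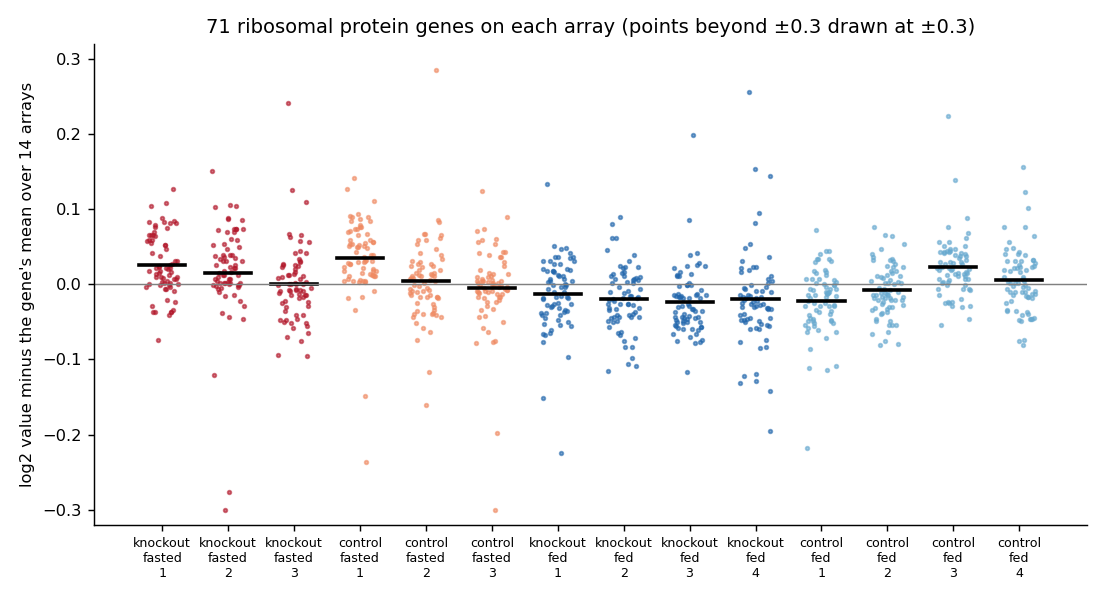
Log2 value minus the gene's mean over 14 arrays (vertical axis) for each of the 71 ribosomal protein genes (points) on each array (horizontal axis, by group), with the array mean as a black bar and points beyond ±0.3 drawn at ±0.3. The bars of the knockout fasted arrays lie between 0.0005 and 0.026 and those of the knockout fed arrays between -0.023 and -0.013.

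Several properties of the arrays differed with the groups. The sample titles carry numbers, but the labels name no series. For the fits below these numbers were split at a gap into a low and a high series. All 6 fasted arrays and knockout fed replicate 1 are low and the other 7 fed arrays are high. A wider gap lies within the low series, and a split there was not tested. Microglial markers were lower in the fasted arrays, where their mean centred level lay between -0.38 and -0.02, than in the fed arrays, between 0.04 and 0.29, and 6 of 10 passed the test. Astrocyte markers lay between 0.05 and 0.25 in the fasted and between -0.14 and -0.04 in the fed arrays, with 4 of 10 higher and 1 lower past the test. Neuron markers lay between -0.035 and 0.024 in the fasted and between -0.037 and 0.036 in the fed arrays, with 0 of 10 past the test. Oligodendrocyte markers lay between -0.24 and 0.08 in the fasted and between -0.03 and 0.16 in the fed arrays, with 2 of 9 higher and 2 lower past the test. Endothelial markers lay between -0.22 and 0.05 in the fasted and between -0.13 and 0.20 in the fed arrays, with 2 of 7 lower past the test. Choroid plexus markers lay between 0.83 and 0.84 in knockout fasted, between -1.44 and -0.07 in control fasted, between -1.30 and 1.56 in knockout fed and between -1.49 and 0.73 in control fed arrays. Among markers of hypothalamus, control fed replicate 1 was the lowest array at -0.47, and it was the highest for markers of cortex and hippocampus, at 0.72. Cortex and hippocampus markers lay between -0.18 and -0.10 in the fasted and between -0.13 and 0.72 in the fed arrays, with 1 of 8 lower past the test. Thalamus markers lay between -0.13 and -0.02 in the fasted and between -0.04 and 0.12 in the fed arrays, with 1 of 6 lower. Hypothalamus markers lay between -0.03 and 0.17 in the fasted and between -0.47 and 0.20 in the fed arrays, with 1 of 15 higher. The 3' minus 5' difference of the Gapdh control probes, which grows as RNA degrades, was between 0.04 and 0.10 in fasted and between -0.03 and 0.12 in fed arrays. That of the Actb control probes was between 0.84 and 0.94 in fasted and between 0.77 and 0.90 in fed arrays. With the mean of the Gapdh and Actb differences as a covariate 0 members passed in any contrast. Fits with the number series are given below. The part of the marker levels in the differences below was not tested. Mfn1 itself was at 9.11, 9.04 and 9.04 in knockout fasted mice, 9.07, 9.07 and 9.05 in control fasted mice, 9.03, 9.06, 9.03 and 9.12 in knockout fed mice and 8.99, 9.08, 9.10 and 8.99 in control fed mice. In whole hypothalamus this gene therefore gives no check of the genotype labels. In bulk tissue, fewer cells of a type and less RNA per cell cannot be told apart.

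In knockout mice the fasting differences of most ribosomal protein genes were small. With limma and adjustment over all genes, 0 of 71 members passed an adjusted p of 0.05, against 0.696% of all genes, and 5 members, all higher, had an unadjusted p under 0.05, against 16.5% of all genes in either direction and 9.02% in the higher one. Among genes with a mean of at least 11, 0.923% passed the adjusted threshold. The differences ran from -0.14 to 0.19 log2 units with a median of 0.036, against 0.0075 over all genes. The difference was above 0 for 59 of 71 members, against 52.4% of all genes, and for 24 of the 25 small subunit genes, with Rps24 the exception, and 35 of the 46 large subunit genes. The 95% interval lay within 0.2 log2 units of 0 for 64 members, and the widest bounds over all 71 were -0.47 and 0.37. On the low number series alone, which leaves 1 fed array, the median was 0.023 and 51 members lay above 0, and with array medians subtracted the median was 0.064 and 63 members lay above 0.

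The acidic stalk proteins recruit elongation factors to the large subunit. Rplp0, the stalk's base, was at 11.99, 11.91 and 11.92 in knockout fasted mice and at 11.86, 11.82, 11.82 and 11.86 in knockout fed mice. These groups did not overlap, and the difference was 0.10 ± 0.05 (SE), adjusted p = 0.30 with limma. The background share of genes higher with no overlap between these groups was 7.37%. In control mice Rplp0 was at 11.89, 11.80 and 11.90 when fasted and at 11.85, 11.84, 11.84 and 11.79 when fed, and the groups overlapped. Its partners Rplp1 and Rplp2 differed by 0.045 ± 0.04 and -0.005 ± 0.04 (SE) in knockout mice and by -0.01 ± 0.04 and -0.0025 ± 0.04 (SE) in control mice.

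Rpl27, a large subunit protein mutated in some human inherited anaemias, had the smallest p of the members in knockout mice. It was at 11.07, 11.10 and 11.02 in knockout fasted mice and at 10.94, 10.96, 10.95 and 10.92 in knockout fed mice. All fasted arrays were above all fed arrays, with a difference of 0.12 ± 0.04 (SE) and adjusted p = 0.183 with limma. Rpl27 had 3 probe sets, and the alternative settings other than leaving out 1 array gave 0.079 to 0.149. In control mice Rpl27 was at 11.01, 10.99 and 10.96 when fasted and at 11, 10.98, 11 and 11.02 when fed, with overlapping groups. Rps15a, a small subunit protein, was at 8.69, 8.69 and 8.63 in knockout fasted mice and at 8.56, 8.56, 8.60 and 8.39 in knockout fed mice. The difference was 0.14 ± 0.06 (SE), adjusted p = 0.257 with limma, and the groups did not overlap. Rpl13a, a large subunit protein that in human monocytes also silences the translation of inflammatory mRNAs, was at 12.27, 12.24 and 12.21 in knockout fasted mice and at 12.18, 12.16, 12.12 and 12.11 in knockout fed mice. Its difference was 0.10 ± 0.04 (SE), adjusted p = 0.291 with limma. In all, 10 of 71 members were higher with no overlap, against 7.37% of all genes. The others were Rpl15, Rpl35a, Rpl39l, Rps14, Rps21 and Rps9. Among genes with a mean of at least 11, 7 of 63 members and 70 of all 650 genes were higher with no overlap. Rps24 alone was lower with no overlap, at 12.50, 12.49 and 12.47 in knockout fasted mice and at 12.57, 12.51, 12.57 and 12.56 in knockout fed mice. Its difference was -0.07 ± 0.04 (SE), adjusted p = 0.486 with limma, and the share of all genes lower with no overlap was 5.64%.

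Fasting of control mice gave 0 of 71 members past the threshold, against 2.76% of all genes with limma, and 1 member, Rps13, higher at an unadjusted p under 0.05, against 17.5% of all genes in either direction and 8.48% in the higher one. Among genes with a mean of at least 11, 2.31% passed the adjusted threshold. The differences ran from -0.17 to 0.13 log2 units with a median of 0.016, against -0.005 over all genes. The difference was above 0 for 45 members, against 48.3% of all genes. The median was 0 without control fasted replicate 1, the array with the most members above their mean, -0.009 when the fit took the number series into account, and 0.032 with array medians subtracted.

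Rps13, a small subunit protein, was at 11.77, 11.74 and 11.76 in control fasted mice and at 11.60, 11.62, 11.64 and 11.64 in control fed mice. The groups did not overlap, and the difference was 0.13 ± 0.05 (SE), adjusted p = 0.192 with limma. In knockout mice Rps13 was at 11.77, 11.76 and 11.68 when fasted and at 11.69, 11.57, 11.62 and 11.74 when fed, and the groups overlapped. Rpl36, Rpl37a, Rpl7a and Rps14 were also higher in fasted control mice with no overlap, against 7.94% of all genes. Rpl35, which lies near the exit of the peptide tunnel, was lower with no overlap, at 12.02, 11.98 and 11.96 in control fasted mice and at 12.04, 12.07, 12.08 and 12.06 in control fed mice. Its difference was -0.08 ± 0.05 (SE), adjusted p = 0.416 with limma, and 8.57% of all genes were lower with no overlap.

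Averaged over the genotypes, the fasting differences again gave 0 of 71 members past the threshold, while 10% of all genes and 7.23% of the 650 genes with a mean of at least 11 passed. Without adjustment 6 members had a p under 0.05, all higher, against 26.0% of all genes in either direction and 13.2% in the higher direction. The median difference was 0.026 log2 units, against 0.0025 over all genes, and 53 members lay above 0, against 50.8% of all genes. The 95% interval lay within 0.2 log2 units of 0 for 69 of 71 members and for 43.7% of all genes. Among genes with a mean of at least 11 this held for 63 of 63 members and for 580 of 650 genes (89.2%). For the 63 members with a mean of at least 11, the lowest bound of any interval was -0.112 and the highest was 0.184.

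The 0 was not the count under every setting. With limma's trended and robust prior, the spread expected of a gene follows its signal. Under it 12.5% of all genes passed in either direction, and the shares in the higher direction and among bright genes were not counted. Of the 71 members 8 (11.3%) passed, all higher in fasted mice. These were Rps13, Rps14, Rpl37a, Rpl13a, Rpl7a, Rps6, Rps21 and Rplp0, with differences between 0.06 and 0.11 log2 units and adjusted p between 0.0076 and 0.0459. Under that prior Rpl27 also passed in knockout mice (adjusted p = 0.0494), against 1.99% of all genes in either direction. Rps13 passed in control mice (adjusted p = 0.0375), against 4.5% in either direction. In a fit with a term for the number series the averaged median was 0.0054, 40 members lay above 0 and 15 of all genes passed. With array medians subtracted the averaged median was 0.048 and 63 members lay above 0. Fasting and the number series, as split here, can be told apart only through knockout fed replicate 1.

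The highest averaged difference was that of Rps13, 0.11 ± 0.04 (SE) with a 95% interval of 0.03 to 0.18, adjusted p = 0.0756 with limma. The upper end of that interval is a 1.14-fold difference. Rps15a followed with 0.10 ± 0.04 (SE), adjusted p = 0.15. The lowest were larger in size, -0.14 ± 0.07 for Rpl3l and -0.12 ± 0.11 (SE) for Rpl7l1, and did not pass. Rps14, a protein of the small subunit's platform, was the only member whose 6 fasted arrays were all above all 8 fed arrays, against 1.92% of all genes, and 0 members were below on all of them, against 1.49%. It was at 12.51, 12.56 and 12.52 in knockout fasted mice, 12.54, 12.50 and 12.53 in control fasted mice, 12.41, 12.46, 12.44 and 12.47 in knockout fed mice and 12.48, 12.46, 12.49 and 12.44 in control fed mice. Its fasted and fed arrays were 0.01 log2 units apart at the nearest, which is the step of the deposited values, and the averaged difference was 0.07 ± 0.03 (SE), adjusted p = 0.154 with limma. Rpl37a, a zinc-binding protein of the large subunit, and Rpl7a, one of its core proteins, each differed by 0.07 ± 0.03 (SE), with adjusted p = 0.173 and 0.171.

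**Figure D3:**
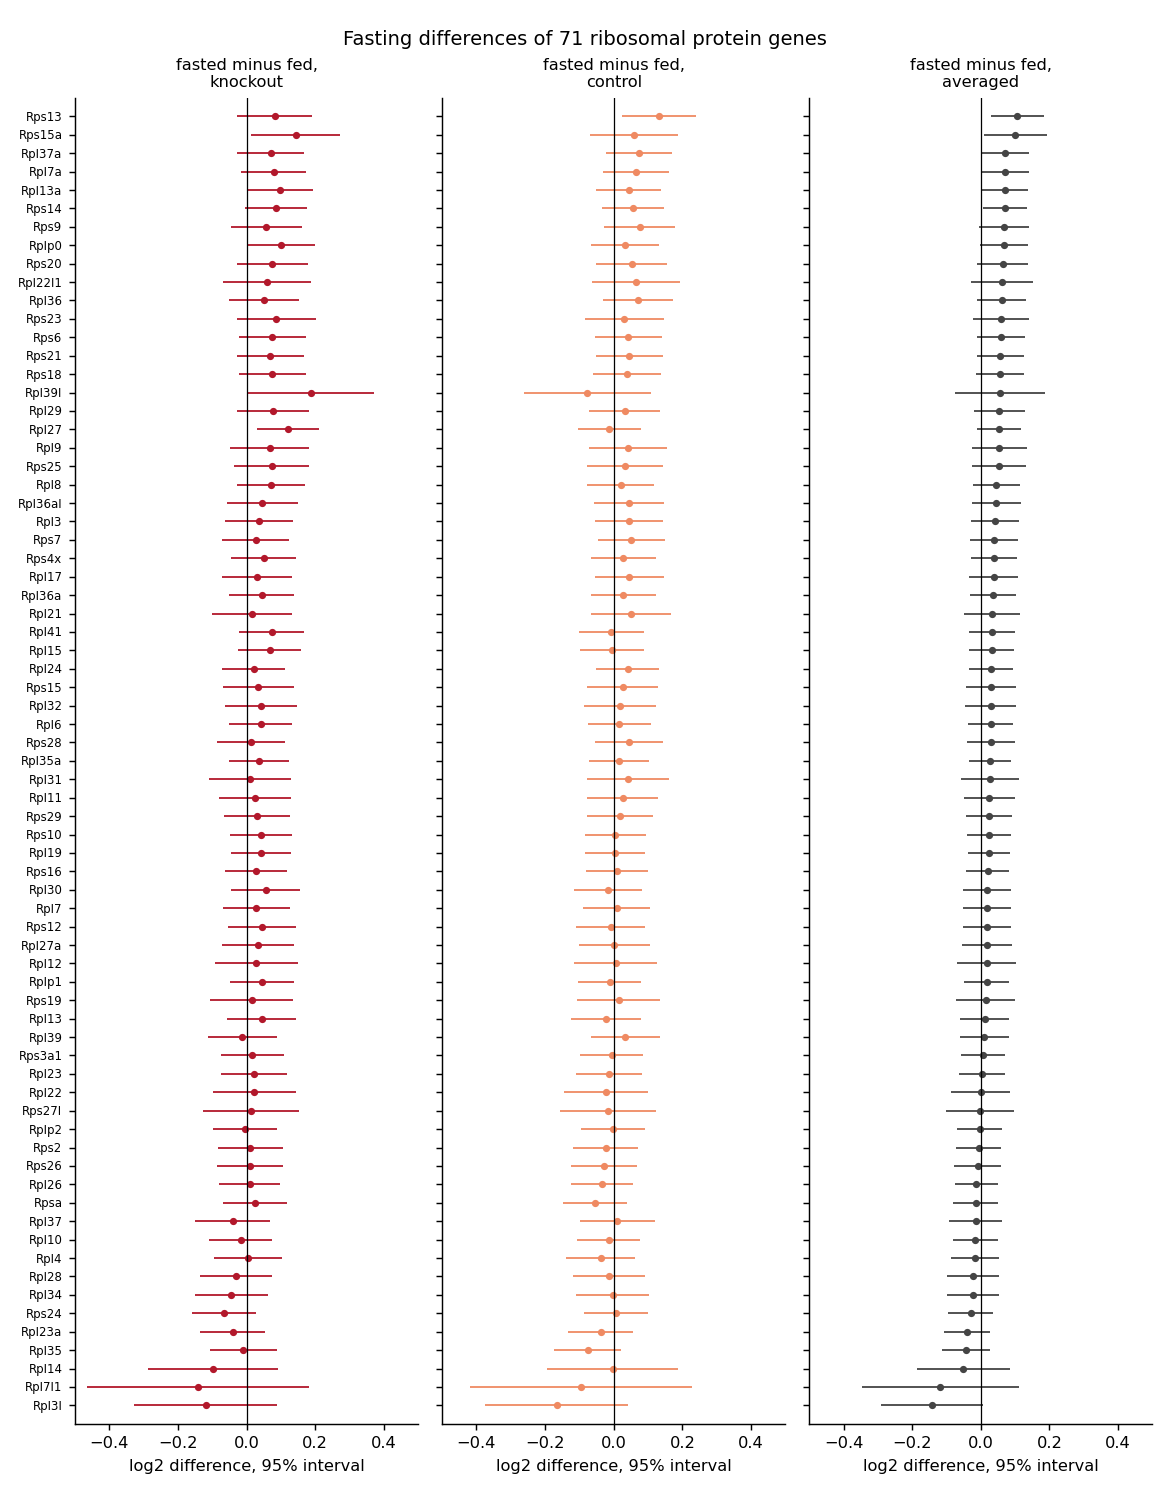
Log2 difference, fasted minus fed, with its 95% interval (horizontal axis) for each of the 71 ribosomal protein genes (vertical axis, ordered by the averaged difference), in knockout mice, in control mice and averaged over the genotypes. Most points lie within 0.1 of 0 and the widest intervals belong to Rpl7l1, Rpl3l, Rpl14 and Rpl39l, which are among the 8 dimmer members.

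Rps6, whose protein is the phosphorylated target of the S6 kinases, was at 12.85, 12.80 and 12.86 in knockout fasted mice and at 12.75, 12.81, 12.78 and 12.71 in knockout fed mice. In control mice it was at 12.80, 12.86 and 12.80 when fasted and at 12.75, 12.79, 12.81 and 12.76 when fed. In each genotype 1 fed array was above the lowest fasted array, so the groups overlapped. The averaged difference was 0.06 ± 0.03 (SE), adjusted p = 0.274 with limma. Rpsa, a small subunit protein also known as a laminin receptor precursor, differed by -0.015 ± 0.03 (SE), adjusted p = 0.805. The fasting difference was 0.025 ± 0.04 (SE) in knockout mice and -0.055 ± 0.04 (SE) in control mice, neither past the threshold.

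**Figure D4:**
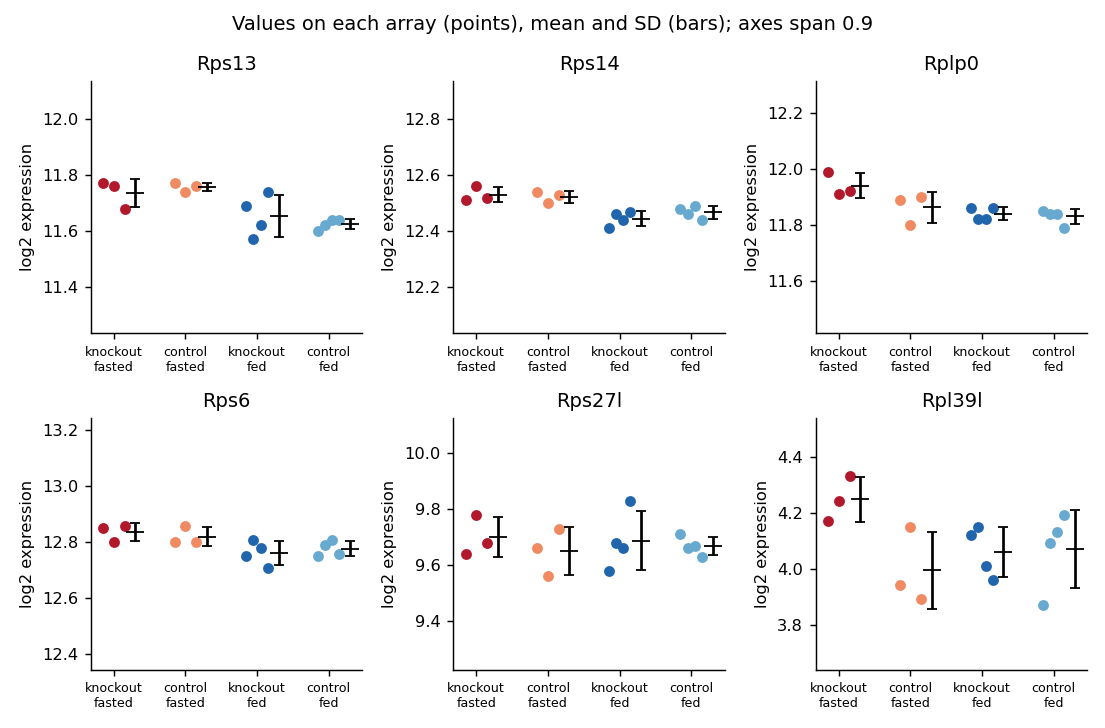
Log2 expression (vertical axes, each spanning 0.9 units) on each array by group (horizontal axes) for Rps13, Rps14, Rplp0, Rps6, Rps27l and Rpl39l, with the group mean and SD as bars beside the points. Rps14 is higher on all 6 fasted arrays than on all 8 fed arrays, Rplp0 is highest in knockout fasted mice, and Rps27l shows overlapping groups.

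Some ribosomal proteins have a second gene copy with a pattern of its own. Rps27l, a copy of Rps27 that p53 induces, was at 9.64, 9.78 and 9.68 in knockout fasted mice, 9.66, 9.56 and 9.73 in control fasted mice, 9.58, 9.68, 9.66 and 9.83 in knockout fed mice and 9.71, 9.66, 9.67 and 9.63 in control fed mice. All groups overlapped, and the averaged fasting difference was -0.0025 ± 0.05 (SE), adjusted p = 0.98 with limma. Its other probe sets differed by -0.01 and 0.0017. Rpl22l1, the copy of Rpl22, differed by 0.06 ± 0.04 (SE), adjusted p = 0.392, while Rpl22, which binds small RNAs of viral origin besides ribosomal RNA, differed by 0 ± 0.04 (SE), adjusted p = 1. Rpl36al, an autosomal copy of the X-linked Rpl36a, and Rpl36a differed by 0.05 ± 0.03 and 0.04 ± 0.03 (SE), with adjusted p = 0.433 and 0.508. The X-linked Rpl10, a late-joining protein near the catalytic centre, differed by -0.02 ± 0.03 (SE), and the X-linked Rps4x differed by 0.04 ± 0.03 (SE).

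Rpl3l is a copy of Rpl3 known from skeletal muscle and heart, and its signal ranged from 3.46 to 3.96 over the 14 arrays, at the level of the background probe sets. Its averaged fasting difference was -0.14 ± 0.07 (SE), adjusted p = 0.208 with limma, while Rpl3 differed by 0.04 ± 0.03 (SE), adjusted p = 0.471. Rpl39l, a copy of Rpl39 known from testis, was also near background. It was at 4.17, 4.24 and 4.33 in knockout fasted mice, 3.94, 4.15 and 3.89 in control fasted mice, 4.12, 4.15, 4.01 and 3.96 in knockout fed mice and 3.87, 4.09, 4.13 and 4.19 in control fed mice. All knockout fasted arrays were above all control fasted and all knockout fed arrays. Rpl39, a small protein of the peptide exit tunnel, differed by 0.01 ± 0.03 (SE) with fasting, adjusted p = 0.879.

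Rpl7l1, named for its likeness to Rpl7, had probe sets that disagreed in sign. The probe set used here was at 8.28, 7.89 and 8.44 in knockout fasted mice, 8.28, 8.60 and 7.99 in control fasted mice, 8.09, 8.32, 8.40 and 8.57 in knockout fed mice and 8.33, 8.35, 8.39 and 8.47 in control fed mice, with an averaged fasting difference of -0.12 ± 0.11 (SE). Another probe set differed by -0.09 ± 0.06 (SE). The dimmest probe set was at 6.91, 7.06 and 6.79 in knockout fasted mice, 6.79, 6.74 and 6.97 in control fasted mice, 6.42, 6.63, 6.68 and 6.44 in knockout fed mice and 6.76, 6.74, 6.68 and 6.44 in control fed mice. It was higher in fasted mice by 0.28 ± 0.07 (SE), adjusted p = 0.0261 with limma over 28898 probe sets. Rpl7 itself differed by 0.02 ± 0.03 (SE), adjusted p = 0.769.

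That probe set was the only other probe set of a member to pass. Of the 71 members, 37 had 1 probe set naming them alone and 34 had several, with 63 further probe sets in all, of which 1 passed in the averaged fasting contrast, against 8.65% of all probe sets. Rps20, a small subunit protein, had a pair of bright probe sets that differed by 0.06 each and a pair of dim ones that differed by 0.29 ± 0.12 and 0.32 ± 0.11 (SE), adjusted p = 0.143 and 0.0842. When the probe sets of each gene were averaged, Rps20 and Rps6 passed in the averaged fasting contrast, against 9.41% of all genes in either direction. Their differences were 0.19 ± 0.05 and 0.12 ± 0.03 (SE), with adjusted p = 0.0353 and 0.0497. Rpl14 was read from a dim probe set, since its 4 bright probe sets also name a pseudogene. Rpl5 and Rps3 were named only by probe sets that name several genes and are not among the 71. The probe set used carried the x suffix, which marks probes that can bind other sequences, in 17 members, and ribosomal protein genes have many processed pseudogenes.

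The genotype comparisons asked whether loss of Mfn1 in POMC neurons goes with a difference in the whole hypothalamus. In fasted mice, 0 of 71 members passed, as did 0% of all 17097 genes with limma, and 1 member, Rpl39l, had an unadjusted p under 0.05, against 3.87% of all genes in either direction and 2.13% in the higher one. The difference, knockout minus control, was above 0 for 51.7% of all genes and for 46.8% of the 650 genes with a mean of at least 11. Among the members 30 lay above 0, with differences from -0.09 to 0.25 and a median of -0.003. That count was 47 without control fasted replicate 1. Rpl39l had the largest difference, 0.25 ± 0.09 (SE), unadjusted p = 0.0161 and adjusted p = 1, at a signal near background. Rplp0 and Rpl27 followed with 0.08 ± 0.05 (SE) each and were higher in knockout fasted mice with no overlap, against 4.19% of all genes. For Rpl27 the alternative settings other than leaving out 1 array gave 0.02 to 0.083. Rpl34 and Rps24 were lower with no overlap, against 3.45%. Rpl34 was at 11.80, 11.78 and 11.73 in knockout fasted mice and at 11.88, 11.81 and 11.86 in control fasted mice, a difference of -0.08 ± 0.05 (SE), adjusted p = 1.

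In fed mice, 0 of 71 members passed, against 0.00585% of all genes with limma, and 0 had an unadjusted p under 0.05, against 4.62% of all genes in either direction and 2.18% in the higher one. The difference was above 0 for 46.4% of all genes and for 40.2% of the 650 genes with a mean of at least 11. Among the members 19 lay above 0, with differences from -0.06 to 0.03 and a median of -0.02. That count was 12 without control fed replicate 1, the array with the lowest hypothalamic and highest cortical marker level, 14 within the high number series and 8 with array medians subtracted. Rpl27 was at 10.94, 10.96, 10.95 and 10.92 in knockout fed mice and at 11, 10.98, 11 and 11.02 in control fed mice. It was lower in knockout fed mice with no overlap, by -0.06 ± 0.04 (SE), adjusted p = 0.995. Here the alternative settings other than leaving out 1 array gave -0.07 to -0.025. Rpl15 was also lower with no overlap, at 11.69, 11.65, 11.68 and 11.70 in knockout fed mice and at 11.71, 11.71, 11.74 and 11.75 in control fed mice, a difference of -0.05 ± 0.04 (SE), against 1.48% of all genes. The 95% interval lay within 0.2 log2 units of 0 for 68 of 71 members.

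Averaged over the feeding states, the genotype difference had a median of -0.009, and 0 of 71 members passed, against 0.00585% of all genes with limma, with 0 at an unadjusted p under 0.05, against 4.65% in either direction and 2.49% in the higher one. The difference was above 0 for 21 members, against 49.2% of all genes and 41.1% of those with a mean of at least 11. The members' differences ran from -0.06 for Rpl7l1 to 0.12 for Rpl39l, and no member separated all knockout from all control arrays, against 0.0175% of all genes higher and 0.0409% lower. The 3 highest were Rpl39l, Rplp0 with 0.04 ± 0.03 (SE) and Rps27l with 0.035 ± 0.05 (SE). The lowest after Rpl7l1 were Rpl34 and Rpl23a, a docking site for factors at the tunnel exit, with -0.06 ± 0.03 and -0.05 ± 0.03 (SE).

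The interaction subtracts the fasting difference in control mice from the one in knockout mice and asked whether the genotypes respond differently to a fast. It passed for 0 of 71 members and for 0% of all genes with limma, and 2 members, Rpl27 and Rpl39l, had an unadjusted p under 0.05, against 3.83% of all genes in either direction and 2.18% in the higher one. For Rpl27 the interaction was 0.13 ± 0.06 (SE), unadjusted p = 0.043 and adjusted p = 1. Its fasting differences were 0.12 in knockout mice and -0.01 in control mice. The alternative settings other than leaving out 1 array gave an interaction of 0.045 to 0.147. For Rpl39l it was 0.26 ± 0.12 (SE), unadjusted p = 0.0492. The median over the members was 0.0225, against 0.0117 over all genes, and 47 members lay above 0, against 53.8% of all genes. The 95% interval of the interaction lay within 0.2 log2 units of 0 for 52 of 71 members.

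Other genes of ribosome production and translation are set beside the members in the averaged fasting contrast, with the same 10% of all genes past the threshold. Mitochondrial ribosomal proteins, which build the ribosome inside mitochondria, had 3 of 73 higher and 1 lower, with a median of 0.012. The 3 were Mrpl2 with 0.21 ± 0.04, Mrpl41 with 0.19 ± 0.04 and Mrps15 with 0.14 ± 0.04 (SE), and Mrpl36 fell by 0.28 on the log2 scale. Of 51 genes of ribosome assembly, 5 rose and 2 fell, with a median of 0.032. Those that rose were Gnl2 with 0.26 ± 0.06, Lsg1 with 0.23 ± 0.06, Utp3 with 0.18 ± 0.04, Wdr12 with 0.17 ± 0.04 and Nob1 with 0.15 ± 0.04 (SE). Noc3l fell by 0.35 and Ltv1, an export factor of the small subunit, by 0.24 on the log2 scale. Of 12 genes of RNA polymerase I, which makes ribosomal RNA, Polr1a and Polr1c rose by 0.21 ± 0.06 and 0.15 ± 0.04 (SE), and Taf1a fell by 0.25 on the log2 scale.

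Of 16 other genes whose mRNAs carry the TOP motif, 3 rose and 0 fell, with a median of 0.021. Eef1d, a subunit of the exchange factor of elongation factor eEF1A, was at 10.21, 10.45 and 10.15 in knockout fasted mice, 10.30, 10.31 and 10.42 in control fasted mice, 10.17, 9.96, 10.01 and 10.12 in knockout fed mice and 9.97, 10.01, 10.01 and 10.09 in control fed mice. Fasted and fed control mice did not overlap, and the averaged difference was 0.26 ± 0.05 (SE), adjusted p = 0.00849 with limma. Btf3, part of the nascent chain complex, rose by 0.16 ± 0.04 (SE) and Eif4b, a cofactor of a helicase of translation initiation, by 0.14 ± 0.04 (SE). Of 24 initiation factors, 5 rose and 0 fell, with a median of 0.065. These were Eif3k with 0.21 ± 0.05, Eif3l with 0.16 ± 0.03, Eif5 with 0.16 ± 0.04, Eif2b4 with 0.15 ± 0.04 and Eif3c with 0.13 ± 0.03 (SE).

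Of 18 genes of mTORC1 and translation control, 2 rose and 1 fell, with a median of 0.022. Ddit4, an inhibitor of mTORC1 induced by stress and glucocorticoids, was at 9.09, 10.23 and 9.58 in knockout fasted mice, 9.95, 10.15 and 10.61 in control fasted mice, 8.70, 8.70, 8.58 and 8.94 in knockout fed mice and 8.87, 8.73, 8.82 and 8.75 in control fed mice. All fasted arrays were above all fed arrays, with an averaged difference of 1.17 ± 0.15 (SE), adjusted p = 0.000526 with limma. Sesn1, another inhibitor, rose by 0.45 ± 0.08 (SE), and Rps6ka3, a kinase of the RSK family, fell by 0.20 on the log2 scale. Of 11 genes of p53 and its targets, 4 rose, with a median of 0.103. Cdkn1a, an inhibitor of the cell cycle, rose most, by 3.07 ± 0.35 (SE), and was at 8.30, 10.47 and 7.57 in knockout fasted mice, 9.24, 9.49 and 10.24 in control fasted mice, 5.98, 6.13, 6.34 and 6.74 in knockout fed mice and 6.25, 6.07, 5.92 and 5.78 in control fed mice. Pmaip1 rose by 0.74 ± 0.16, Trp53inp1 by 0.67 ± 0.18 and Ccng1 by 0.23 ± 0.05 (SE), while Rps27l, the member that p53 induces, did not pass. Of 9 common reference genes, among them Actb and Gapdh, 0 passed with limma and 0 had an unadjusted p under 0.05, and their differences ran from -0.11 to 0.07.

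Within single genotypes 2 of the 214 genes on these 8 lists passed in knockout mice, against 0.696% of all genes, and 5 in control mice, against 2.76%. In knockout mice Cdkn1a rose by 2.48 ± 0.50 (SE) and Noc3l fell by 0.60 on the log2 scale. In control mice Cdkn1a, Ddit4, Sesn1, Gnl2 and Eef1d rose, by 3.65 ± 0.50, 1.44 ± 0.21, 0.49 ± 0.12, 0.39 ± 0.08 and 0.32 ± 0.08 (SE). Of the 214 genes, 0 passed with limma in the genotype comparisons and the interaction, and 6 in each genotype comparison and 9 in the interaction had an unadjusted p under 0.05, against 3.87% of all genes in fasted mice, 4.62% in fed mice, 4.65% averaged and 3.83% in the interaction. Genes beyond the 3 with the smallest p of a list were named after their values were seen.

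**Figure D5:**
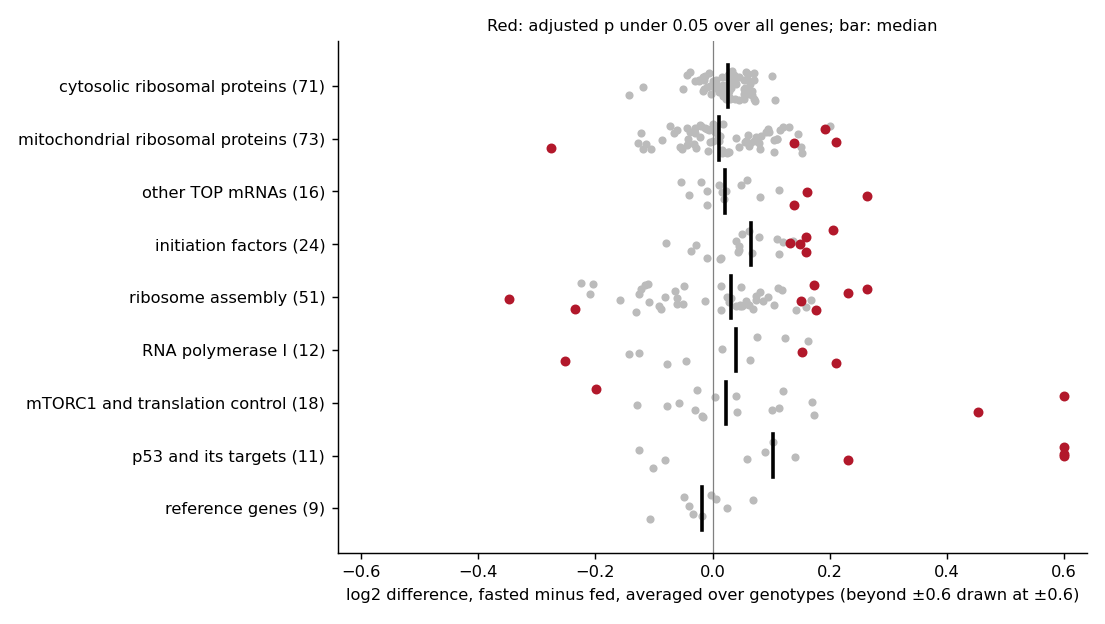
Log2 difference, fasted minus fed and averaged over the genotypes (horizontal axis), of each measured gene of 9 lists (vertical axis, number of genes in parentheses), with genes past an adjusted p of 0.05 in red and the list median as a bar (differences beyond ±0.6 are drawn at ±0.6). None of the 71 cytosolic ribosomal protein genes is red and they lie closely around their median of 0.026, while red points lie on both sides of 0 for mitochondrial ribosomal proteins, ribosome assembly, RNA polymerase I and mTORC1.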

How the data were processed

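Hypothalamic RNA of 14 samples was hybridised to Affymetrix arrays. The authors deposited log2 expression values. The submitters' processing notes name RMA and affy, without versions. RMA forces all arrays to 1 distribution, so that a shift shared by most genes is lost, and combines probes into 1 value per probe set. The values were used as deposited, at 2 decimals, and 0 columns of the table were left out. Array medians lay between 4.98 and 5.05, at most 2.86% of values were identical between any pair of arrays, and each array counted as 1 sample. Precision is limited by how many arrays there are.

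Of 45141 probe sets, 28898 named 1 gene in the platform annotation. limma 3.58.1 (R 4.3.3) was fitted to all 17097 genes, with 1 coefficient per group over all arrays and eBayes (residual degrees of freedom 10, prior 3.27). Tests were two-sided and p-values adjusted over all genes by the Benjamini-Hochberg method at 0.05, for 7 contrasts. The pipeline was run on simulated data as a check of the code. The differences planted there were larger than those of the members, so the run does not show whether differences as small as theirs would be found. Chromosomes and sequences came from RefSeq tables of GRCm38.p6, which held all 71 members for chromosomes.

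The members and the 8 pathway and 13 marker lists were chosen with earlier results of these data known. Named members were, per contrast, those past the threshold or, with fewer than 5, the 3 highest and 3 lowest differences, then Rplp0, Rplp1, Rplp2, Rpsa, Rps6 and gene copies with their partners, and up to 3 genes of each list with the smallest p past the threshold. Rps13, Rps14, Rps20, Rpl7a, Rpl13a, Rpl15, Rpl34, Rpl35 and the other members outside that rule were named after their values were seen. Rps27, Rpl10l and Rps4l were not analysed here. Alternatives were leaving out the dimmest 40% of genes, averaging a gene's probe sets, subtracting array medians, a trended and robust prior, and array weights. Others were the mean of the Gapdh and Actb 3' minus 5' differences or the number series as a covariate, and leaving out each array.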

Additional observations from a re-analysis of the deposited data

Results flagged for a closer look

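In 5 of 60 group values of the named members, 1 of the 4 arrays of a group stood apart from the other 3 by Dixon's test, and chance gives about 1 in 20. Values carry 2 decimals, so gaps of a few steps of 0.01 decide this test in genes of such small spread. Among knockout fed mice, Rpl22 was at 10.06 in replicate 4 and between 9.89 and 9.90 in the others, Rpl39 was at 12.43 in replicate 3 and between 12.37 and 12.38 in the others, and Rps24 was at 12.51 in replicate 2 and between 12.56 and 12.57 in the others. Among control fed mice, Rpl30 was at 11.90 in replicate 1 and between 11.96 and 11.97 in the others, and Rplp0 was at 11.79 in replicate 4 and between 11.84 and 11.85 in the others. Control fed replicate 1 is also the array with the lowest hypothalamic marker level.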

How the results depend on the processing

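No paired analysis was possible because no number in the titles is shared by 2 samples. Under 22 alternative settings, and 2 within the number series that were chosen after seeing the data, 10 of 3287 differences of named members passed the threshold, no called difference changed direction, and 248 that did not pass turned in sign.

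In the averaged fasting contrast, where 0 members passed, 8 passed with the trended and robust prior, 2 with the mean of probe sets (Rps20 and Rps6), and 1, Rps13, each without the 40% of genes with the lowest mean, with array weights and without knockout fed replicate 4, so that the count was 0 to 1 over the fits leaving out 1 array. With the trended and robust prior 1 member passed in knockout mice and 1 in control mice. With array medians subtracted, the median fasting difference was 0.0642 in knockout mice, 0.0317 in control mice and 0.0483 averaged, 8 members lay above 0 between the genotypes in fed mice, and the level of the knockout fed arrays was -0.0346. In a fit with a term for the number series the median was -0.00917 in control mice and 0.00542 averaged. Leaving out 1 array in turn gave medians of 0.0275 to 0.04 in knockout mice, 0 to 0.0233 in control mice and 0.0192 to 0.0325 averaged. In the same fits 28 to 47 members lay above 0 between the genotypes in fasted mice and 12 to 23 in fed mice. The cause of these changes was not tested.

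With the split of title numbers used here, the 7 arrays of each number series leave fasting and series nearly inseparable. Probe sets near background or naming several genes limit what can be said of Rpl3l, Rpl39l, Rpl14, Rpl5 and Rps3.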
